A study of Homo sapiens with 2 samples.

Results

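The genes described are those for the proteins of the mitochondrial ribosome, taken as every gene whose annotated symbol is MRPL or MRPS followed by a number, with a letter allowed after it. The array held 76 such genes on 106 features (spots with a probe for 1 transcript), among 18334 named genes in all. A ratio was measured on both arrays for all 76 of them and for 12842 named genes in all, which are the comparison for the ratios. The measurements come from COLO320, an established line of human colorectal cancer cells, cultured in RPMI-1640 with FBS. Cells received 100 nM of CDX2 siRNA 6, of CDX2 siRNA 8, or of a control siRNA with no target, and RNA was collected 24 h after the medium had been changed. CDX2 is a homeodomain protein that drives intestinal genes, so the comparison asks what differs when its transcript is reduced. Each of 2 two-colour arrays carried RNA from 1 CDX2 siRNA in the Cy5 channel and time-matched control RNA in the Cy3 channel.

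All values are log2 ratios of CDX2 siRNA over control, so that 0 means equal signal, 0.58 is 1.5-fold higher and -0.58 is 1.5-fold lower. The 2 siRNAs are the replicates (n = 2 throughout), and the number of arrays limits the precision. CDX2 itself had ratios of -1.44 with siRNA 6 and -1.41 with siRNA 8, which left 37.3% of the control level (limma, adjusted p = 0.0016). The ratios are of 1 cell line, the dyes were not swapped, and the spread of the control RNA was not measured. Whether both arrays held the same control RNA is not given, nor whether the siRNAs were tested in separate cultures, so the spread that p-values rest on is that of these arrays and may be technical. A ratio between 2 channels gives no level of a marker, so the identity of the cells could not be checked, and in bulk RNA fewer cells with a transcript cannot be told apart from less of it per cell.

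The mitochondrial ribosome translates the few messenger RNAs of the mitochondrial genome, which encode core subunits of the respiratory chain and of ATP synthase. Its ribosomal RNAs come from mitochondrial DNA, but all of its proteins are encoded in the nucleus, made in the cytosol and imported. Some of these proteins have relatives in bacterial ribosomes, and others were added during the evolution of mitochondria. Promoters of nuclear genes for mitochondrial proteins are known for sites of NRF1, of ETS factors such as GABP, and of YY1.

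The promoters of 5 members are printed because their genes mark the results below. MRPL1 was the only member to reach 1.5-fold above control on each array, and MRPS11 and MRPS34 passed the test as lower. MRPL20 stayed near 0 and held 3 of the motifs searched, and MRPS12 shares its upstream region with an oppositely transcribed gene. The sequences are those of RefSeq for GRCh38.p14. They end at the base before the annotated start, run 5′ to 3′ on the strand of the gene, and reach back 250 bases or, for MRPS12, to the base before the start of its neighbour. Capitals mark matches to the motifs spelled out after the sequences. The regions are chr4:77862580-77862829 on the plus strand for MRPL1, chr15:88467458-88467707 on the plus strand for MRPS11, chr16:1773135-1773384 on the minus strand for MRPS34, chr1:1407294-1407543 on the minus strand for MRPL20 and chr19:38930764-38930943 on the plus strand for MRPS12.
MRPL1: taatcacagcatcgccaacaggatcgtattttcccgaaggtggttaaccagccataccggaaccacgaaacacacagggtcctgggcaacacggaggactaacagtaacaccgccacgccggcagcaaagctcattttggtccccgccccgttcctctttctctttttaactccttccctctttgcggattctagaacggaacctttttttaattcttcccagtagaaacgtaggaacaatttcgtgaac
MRPS11: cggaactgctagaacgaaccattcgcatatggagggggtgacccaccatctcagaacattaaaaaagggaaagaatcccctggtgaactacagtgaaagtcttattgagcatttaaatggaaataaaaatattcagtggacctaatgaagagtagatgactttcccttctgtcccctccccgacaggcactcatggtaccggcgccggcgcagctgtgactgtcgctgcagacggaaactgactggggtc
MRPS34: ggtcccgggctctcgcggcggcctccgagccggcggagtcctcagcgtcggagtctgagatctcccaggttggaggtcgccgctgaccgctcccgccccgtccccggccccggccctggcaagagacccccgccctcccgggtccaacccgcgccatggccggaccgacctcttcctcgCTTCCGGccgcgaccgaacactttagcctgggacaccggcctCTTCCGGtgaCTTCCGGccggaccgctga
MRPL20: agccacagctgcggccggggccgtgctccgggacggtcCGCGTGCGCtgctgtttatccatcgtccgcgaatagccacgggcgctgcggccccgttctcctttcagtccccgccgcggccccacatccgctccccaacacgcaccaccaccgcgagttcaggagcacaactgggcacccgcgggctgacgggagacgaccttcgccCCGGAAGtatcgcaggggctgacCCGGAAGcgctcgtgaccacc
MRPS12: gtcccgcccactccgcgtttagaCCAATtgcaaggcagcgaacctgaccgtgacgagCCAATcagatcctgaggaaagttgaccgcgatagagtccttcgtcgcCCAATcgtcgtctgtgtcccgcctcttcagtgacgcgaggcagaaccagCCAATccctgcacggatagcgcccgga
The printed stretches of MRPL1 and MRPS11 held none of the motifs, that of MRPS34 held the ETS-like letters 3 times, that of MRPL20 held the NRF1-like letters once and the ETS-like letters at 2 places, and that of MRPS12 held CCAAT at 4 places.

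Short motifs were searched on both strands of RefSeq promoters running from 250 bases before to 50 bases after the start, for the 68 members and 15842 coding genes that the table lists. CCGGAAG, the core that ETS factors bind, was present in 29 member promoters (42.6%) and in 14.2% of all coding promoters. The share was 18.6% for measured coding genes, 34.4% for cytosolic ribosomal protein genes and 29.2% for respiratory chain genes. AAGATGGC, a YY1-like sequence, was present in 19 (27.9%) against 3.91%, and in 14 of these a match reached past the start. For the same 3 comparison sets the YY1-like shares were 5.30%, 12.5% and 15.4%. GCGCANGCG, an NRF1-like sequence, was present in 13 (19.1%) against 11.0%. Its share was 14.6% for measured coding genes, 12.5% for cytosolic ribosomal protein genes and, above that of the members, 32.3% for respiratory chain genes. At least 1 of these 3 motifs was found in 46 member promoters (67.6%) and in 25.5% of all coding promoters. ETS-like and YY1-like matches can overlap, since the first ends in the letters with which the second begins. CCAAT stood in 20 member promoters (29.4%) against 36.4%, and TATAAA in 2 (2.94%) against 9.63%. CAATAAA, a CDX2-like sequence that can share letters with CCAAT, was found in 1 member promoter, that of MRPS14 (1.47%), against 2.82% of all coding promoters. A match describes these letters in this window and does not show a bound site. The promoters of MRPL10, MRPL13, MRPL15, MRPL2, MRPL21, MRPL23, MRPL35 and MRPS28 were not analysed here.

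The mitoribosomal genes stayed close to the control level with both siRNAs and spread less than the measured genes as a whole. Their mean log2 ratios ran from -0.66 for MRPS11 to 0.76 for MRPL1, and the highest mean after MRPL1 was 0.31. The SD of the mean ratio over the 76 genes was 0.201, against 1.07 over all 12842 genes. The interquartile range was 0.175 against 0.625. With features of 10-fold or more on both arrays left out, the SD was 0.201 over members and 0.719 over the remaining genes. In 65 of the 76 the mean lay within 0.25 of 0. The narrow range was present on each array alone, with an SD over members of 0.222 with siRNA 6 and 0.194 with siRNA 8, against 1.09 and 1.08 over all genes.

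**Figure D1:**
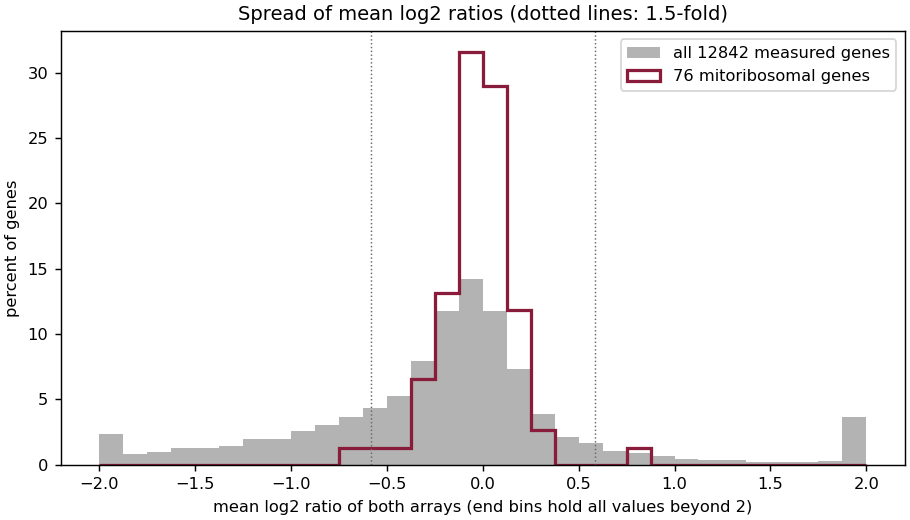
Histogram of the mean log2 ratio of both arrays (horizontal axis) as percent of genes (vertical axis), for all 12842 measured genes (grey) and the 76 mitoribosomal genes (red outline), with dotted lines at 1.5-fold and end bins that hold all values beyond 2. The mitoribosomal genes fill the bins around 0, with 1 gene beyond each dotted line, while all genes reach into both tails.

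The histogram of mean ratios shows where the narrowness lies. Of all measured genes, 12.05% had a mean below -1 and 5.78% a mean above 1, and 0 of the 76 members lay in either range. Between -0.25 and 0.25 there were 34 members below 0 and 31 above it, where all genes held 25.9% and 19.0%. On both arrays, 72 of 76 members (94.7%) were less than 1.5-fold from control, against 62.3% of all measured genes. For 69 of 76 (90.8%) the 95% interval of the mean lay wholly within 1.5-fold, against 49.7% of all genes. The 7 whose interval reached further were MRPL1, MRPL2, MRPL41, MRPL49, MRPS11, MRPS27 and MRPS34.

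As deposited, the median member was nearer to 0 than the median gene, an order that rests on the deposited centring, since centring on the median gene sets that gene to about 0. With siRNA 6 the median log2 ratio was -0.07 over members and -0.14 over all genes. With siRNA 8 it was 0.03 over members and -0.12 over all genes. For the mean of both arrays the medians were -0.01 and -0.13, so that 58 of 76 members lay above the median gene. Below 0 were 51 of 76 members with siRNA 6 and 33 with siRNA 8. When each array was centred on its median over measured genes, which moves the median gene by 0.13, the median member stood at 0.11.

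**Figure D2:**
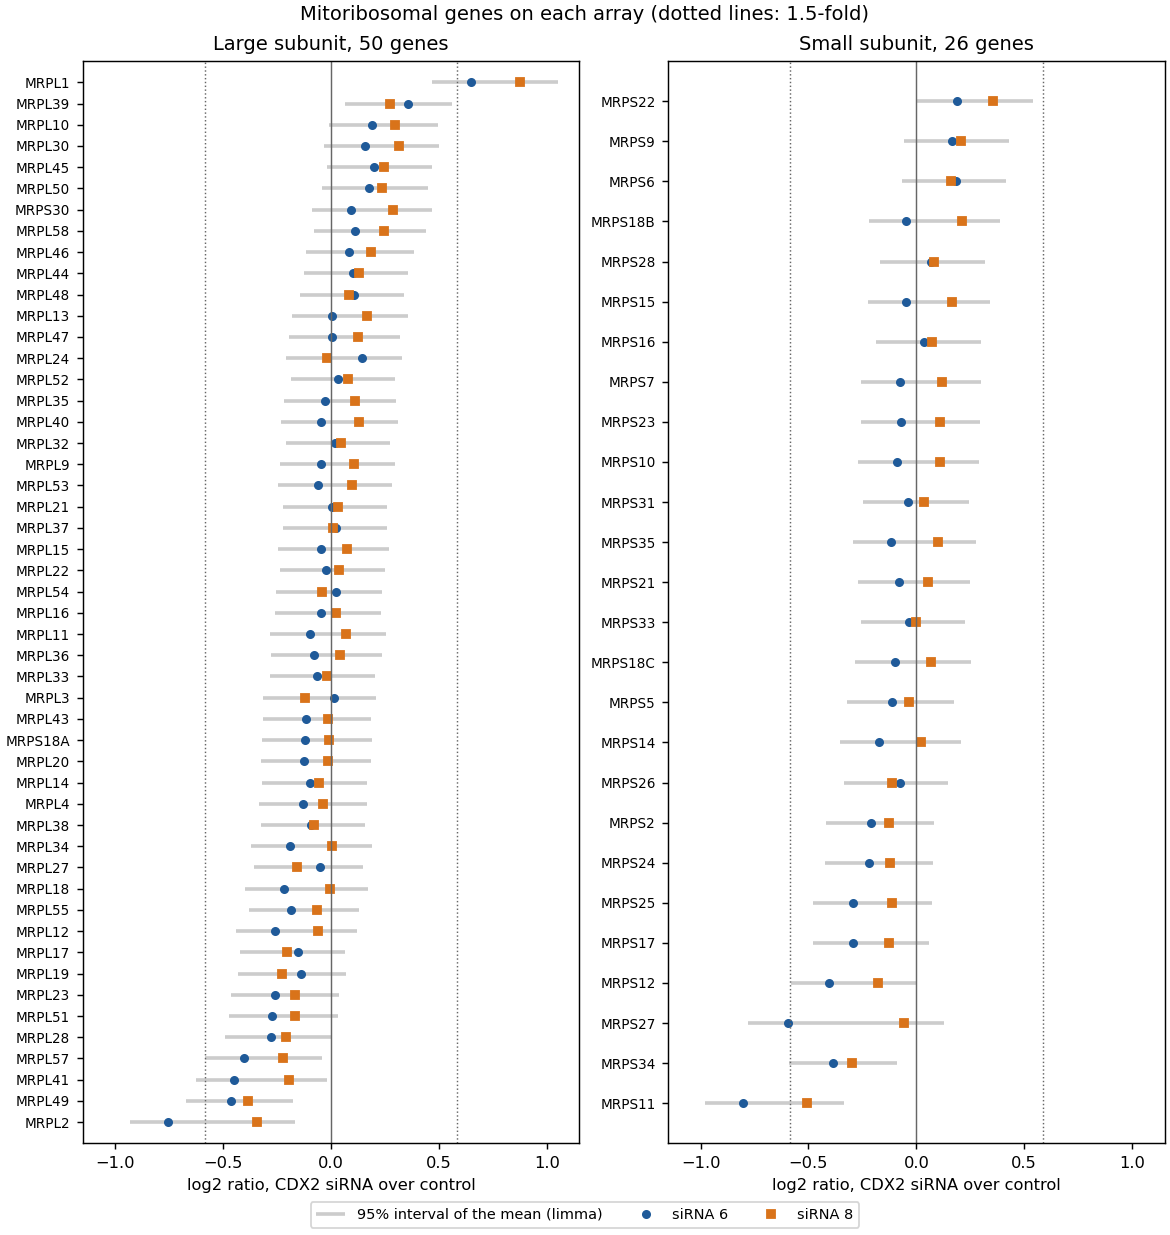
Log2 ratio of CDX2 siRNA over control (horizontal axis) for each of the 50 large subunit and 26 small subunit genes (rows, ordered by mean), with siRNA 6 as circles, siRNA 8 as squares, grey bars for the 95% interval of the mean from limma and dotted lines at 1.5-fold. MRPL1 stands apart at 0.65 and 0.88, and MRPS11 and MRPL2 are the lowest of their subunits.

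Of the 76 genes, 5 passed the test (limma, Benjamini-Hochberg adjusted p under 0.05 over all 12842 genes), which is 6.58% where 40.7% of all measured genes were called. One was higher (12.1% of all genes) and 4 were lower (28.6% of all genes). At an unadjusted p under 0.05 there were 9 members, against 50.9% of all genes. With the arrays centred on their medians, 8 members passed, 7 higher and 1 lower, where 39.2% of all genes were called. The higher ones were then MRPL1, MRPL10, MRPL30, MRPL39, MRPL45, MRPL50 and MRPS22, and the lower one was MRPS11. With exact zeros kept as ratios, limma called 0 of 76 members and 0 of 18334 genes, with 14 members and 5218 genes at an unadjusted p under 0.05.

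MRPL1, a protein of the L1 stalk of the large subunit, past which transfer RNA leaves the ribosome, rose. It read 0.65 on the log2 scale with siRNA 6 and 0.88 with siRNA 8, which is 157% and 184% of control. Both arrays were above every other member on the same array. The mean was 0.76 ± 0.162 (SD, n = 2), or 1.70-fold higher, with a 95% interval of 0.47 to 1.05 (limma, adjusted p = 0.0093). It was the single member at least 1.5-fold higher on both arrays, a class that held 7.8% of all genes, and it was measured by 1 feature.

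MRPS11, a small subunit protein with a bacterial relative, fell by this average, with log2 ratios of -0.81 and -0.51 for siRNA 6 and siRNA 8. The mean was -0.66 ± 0.210 (SD, n = 2), or 1.58-fold lower (limma, adjusted p = 0.0175). The low value came from 1 of its 3 features. The feature annotated to the cDNA BC000200 read -2.01 and -1.51, and the pair annotated to the RefSeq transcript read -0.14 and 0.02, and -0.27 and -0.03. With RefSeq mRNA features alone the mean was -0.11 (limma, adjusted p = 0.446), and with the median feature it was -0.15 (limma, adjusted p = 0.350).

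MRPL49, a large subunit protein without a bacterial relative, had log2 ratios of -0.46 and -0.38, a mean of -0.42 ± 0.0557 (SD, n = 2) and was 1.34-fold lower (limma, adjusted p = 0.0277). Its 3 features carry the same transcript annotation and differed in sign. They read -0.02 and 0.06, then 0.30 and 0.35, then -1.67 and -1.57, for siRNA 6 and siRNA 8 in turn. The fall in the average thus rests on 1 feature, and with the median feature the value was 0.02 (limma, adjusted p = 0.88). Each feature kept its own value with both siRNAs, so the features differed from each other by more than the arrays did.

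MRPL2, which sits near the peptidyl transferase centre of the large subunit, fell, with log2 ratios of -0.76 for siRNA 6 and -0.34 for siRNA 8. The mean was -0.55 ± 0.292 (SD, n = 2), or 1.46-fold lower (limma, adjusted p = 0.0429). Both of its features were below 0 on both arrays, one at -1.17 and -0.52 and the other at -0.34 and -0.16. MRPS34, a small subunit protein without a bacterial relative, fell by 0.38 and 0.30 on the log2 scale, with a mean of -0.34 ± 0.0615 (SD, n = 2), or 1.27-fold lower, from 1 feature (limma, adjusted p = 0.0485). With centred arrays MRPL2, MRPL49 and MRPS34 did not pass (limma, adjusted p = 0.0805, 0.0638 and 0.127). With the median feature of each gene MRPS34 did not pass either (limma, adjusted p = 0.0623), though its own value, from 1 feature, stayed at -0.34.

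**Figure D3:**
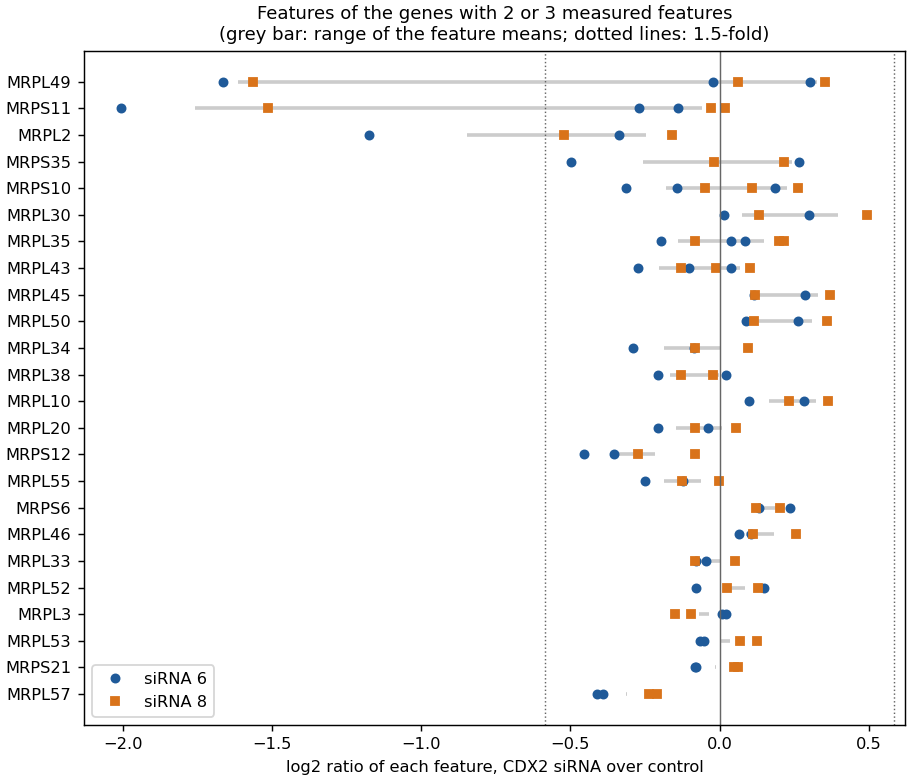
Log2 ratio of every measured feature (horizontal axis) of the 24 mitoribosomal genes with 2 or 3 measured features (rows), with siRNA 6 as circles, siRNA 8 as squares, grey bars from the lowest to the highest feature mean and dotted lines at 1.5-fold. MRPL49 and MRPS11 each have 1 feature far below the others, and most other genes have features that lie close together.

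A single feature measured 52 members, 2 features measured 19 and 3 features measured 5. Of the 106 features, 105 (99.1%) had a ratio on both arrays, against 67.2% of all features with a single gene name. In the 24 members with at least 2 measured features, the median range of feature means was 0.163, against 0.476 over 4933 such genes. The features lay 1 or more apart on the log2 scale in 2 of these 24 (8.33%), MRPL49 with a range of 1.94 and MRPS11 with 1.70, against 30.8% of such genes. They lay under 0.25 apart in 16 of 24, against 33.8%. Of the other members with 3 features, MRPL35 ranged over 0.289, MRPL43 over 0.272 and MRPS10 over 0.407.

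The spread was narrow at each number of features. Members with 1 feature had an SD of 0.181 (n = 52 genes), against 1.26 over all genes with 1 feature. Those with 2 or more had an SD of 0.239 (n = 24 genes), against 0.664. Over the 10635 genes with every feature measured, the SD was 0.947 and 37.6% were called. Signal strength is not in the deposited values, and its part in the spread was not tested.

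Both subunits gave like values. The 50 genes of the large subunit had a median of -0.01 and an SD of 0.203, with 3 called, 1 of them higher. In this count MRPS18A and MRPS30 belong to the large subunit, where their proteins sit in spite of their symbols. The 26 genes of the small subunit had a median of -0.01 and an SD of 0.195, with 2 called, both lower. By origin, the 49 genes with a bacterial relative had a median of -0.02 and 3 calls, and the 27 without one had a median of -0.00 and 2 calls. Over all measured genes, 40.7% were called. In these counts the calls of MRPS11 (small subunit) and MRPL49 (large subunit) each rested on 1 feature.

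The MRPS18 paralogs, 3 genes related to bacterial S18, did not pass the test. MRPS18A read -0.12 and -0.01, MRPS18B read -0.05 and 0.21, and MRPS18C read -0.10 and 0.07, for siRNA 6 and siRNA 8 in turn. All 3 lay higher with siRNA 8. MRPL12, the factor-binding stalk protein that has also been described as a partner of the mitochondrial RNA polymerase, read -0.26 and -0.06 (limma, adjusted p = 0.278). MRPS12, a protein of the decoding centre, read -0.41 and -0.18 (limma, adjusted p = 0.0983). Its features agreed in direction, at -0.46 and -0.27 for one and -0.36 and -0.08 for the other.

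The members nearest to control on both arrays came from both subunits. MRPL37 read 0.02 and 0.01, MRPL21 read 0.00 and 0.03, and MRPL22, which lines the exit tunnel, read -0.02 and 0.04. MRPS33 read -0.03 and 0.00, and MRPS31 read -0.04 and 0.03. For these 5 genes the 95% interval of the mean reached no further than 0.26 from 0. Apart from the called genes, means of 0.25 or more from 0 were found in 6 members, chosen here after their values were seen. MRPS27, MRPL41, MRPL57 and MRPS12 were below 0, at means of -0.33, -0.32, -0.31 and -0.29. MRPL39 and MRPS22 were above 0, at 0.31 and 0.27, and none of the 6 passed the test.

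The siRNAs differed little for these genes, but mostly in 1 direction. The ratio with siRNA 8 was above that with siRNA 6 in 65 of 76 members (85.5%), against 61.3% of all measured genes. The median difference, siRNA 8 minus siRNA 6, was 0.11 over members and 0.06 over all genes. With centred arrays it was positive in 63 of 76, against 58.0% of all genes, with medians of 0.09 and 0.04. With quantile normalization it was also positive in 63, against 53.1%, with medians of 0.08 and 0.01. It was positive in 24 of 26 small subunit genes, with a median of 0.17, and in 41 of 50 large subunit genes, with a median of 0.10. Each siRNA had 1 array, so this difference has no test, and siRNA and array cannot be told apart.

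**Figure D4:**
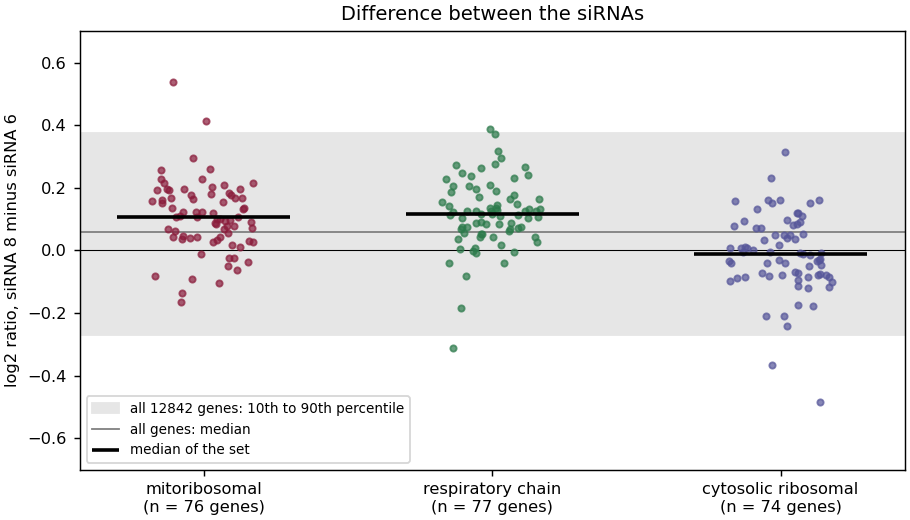
Difference of the log2 ratios, siRNA 8 minus siRNA 6 (vertical axis), for each mitoribosomal, respiratory chain and cytosolic ribosomal gene (points, with the median of each set as a black bar), over a grey band from the 10th to the 90th percentile of all 12842 genes and a grey line at their median. The mitoribosomal and respiratory chain points lie mostly above 0, and the cytosolic ribosomal points lie on both sides. The respiratory chain set includes ATP synthase genes.

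By size, 0 of 76 members were 1.5-fold or more apart between the siRNAs, against 6.61% of all genes. The widest gap was that of MRPS27, a pentatricopeptide repeat protein of the small subunit, which read -0.60 with siRNA 6 and -0.06 with siRNA 8, a difference of 0.54. MRPL2 followed with a difference of 0.41, MRPS11 with 0.30, MRPS18B with 0.26 and MRPL41 with 0.26. In all 5 the value with siRNA 8 was the higher one. At least 1.5-fold from control on 1 array or both were 4 members, MRPL1 on both arrays and MRPL2, MRPS11 and MRPS27 on that of siRNA 6. By leaving out 1 siRNA the count at 1.5-fold was 4 with siRNA 6 alone (33.2% of all genes) and 1 with siRNA 8 alone (30.9% of all genes).

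The closest sets in kind are the other ribosome and the enzymes of respiration and ATP synthesis, most of which the mitochondrial ribosome helps to build. The 74 measured cytosolic ribosomal protein genes had a median of 0.05, an SD of 0.158 and 0 calls by limma. The respiratory chain set held 77 measured nuclear genes, including those of complex II and of ATP synthase. It had a median of -0.07, an interquartile range of 0.152 and 8 calls (10.4%), 3 higher and 5 lower. Of all measured genes, 40.7% were called. The SD of the respiratory chain set was 0.486, with means that ran from -1.24 to 3.31. On both arrays, 89.6% of its genes were less than 1.5-fold from control. The difference between the siRNAs separated them in description. It was positive in 69 of 77 respiratory chain genes, with a median of 0.12, and in 32 of 74 cytosolic ribosomal protein genes, with a median of -0.01.

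Of 84 measured genes that serve mitochondrial translation or gene expression in other ways, 16 passed the test, 4 higher and 12 lower, beside the 40.7% of all measured genes. Centred arrays gave 18 calls, 10 higher and 8 lower. The ribosomal proteins that carry other names gave no call by limma in 4 measured genes, with mean ratios of -0.06 for DAP3, 0.26 for PTCD3, 0.01 for CHCHD1 and -0.17 for GADD45GIP1. Of 25 assembly factors, 4 passed, all lower (1 higher and 2 lower with centred arrays), with a median of -0.01 over the list. MTG1, a GTPase that acts on the large subunit, had log2 ratios of -1.63 and -1.19 (limma, adjusted p = 0.0044), from features that averaged -1.96 and -0.85, the second of which read -1.35 and -0.36. RCC1L, also linked to assembly, had -0.74 and -0.59 (limma, adjusted p = 0.0103). Its feature annotated to a cDNA read -1.16 and -0.85, and its RefSeq feature read -0.32 and -0.33. MRM2, a methyltransferase of the large ribosomal RNA, had -0.47 and -0.40 from 1 feature (limma, adjusted p = 0.0257). MTG2, another GTPase of large subunit assembly, had -0.30 and -0.40 (limma, adjusted p = 0.0461). The transcripts of the 76 ribosomal proteins had the same median of -0.01.

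Of 16 translation factors, 2 rose and 2 fell (4 and 2 with centred arrays), with a median of 0.02. MTRF1L, a release factor, had log2 ratios of 1.23 and 1.32 (limma, adjusted p = 0.0021), but its features averaged 0.14 and 2.40. MTRF1, its relative, had -0.79 and -0.68 (limma, adjusted p = 0.0071), and MRRF, the ribosome recycling factor, had -0.60 and -0.59 (limma, adjusted p = 0.0107). Each of these had features on both sides of 0, at -1.55 and 0.08 for MTRF1 and at -1.62 and 0.43 for MRRF. MTIF2, the initiation factor, had 0.45 and 0.32 from 1 feature (limma, adjusted p = 0.0387). Of 18 aminoacyl-tRNA synthetases, 1 rose and 1 fell (2 and 1 with centred arrays), with a median of -0.03. The share called was 11.1%, also below the 40.7% of all measured genes. MARS2, for methionine, fell, with -1.16 and -0.97 (limma, adjusted p = 0.0037), and FARS2, for phenylalanine, rose, with 0.32 and 0.44 (limma, adjusted p = 0.0391). Both were measured by 1 feature each.

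Among 21 genes of mitochondrial DNA upkeep and of the transcription that serves mitochondria, 1 rose and 5 fell (3 and 3 with centred arrays), with a median of -0.01. The share called was 28.6%, below the 40.7% of all measured genes. NRF1, the transcription factor named for these promoters, had log2 ratios of -1.63 and -1.23 from 1 feature, or 2.69-fold lower (limma, adjusted p = 0.0038). The 13 members with NRF1-like letters in their promoter had means from -0.31 to 0.24. DNA2, a nuclease and helicase, had -0.67 and -0.78 from 1 feature (limma, adjusted p = 0.0075). PPARGC1A, a coactivator of mitochondrial biogenesis, had -0.79 and -0.43 (limma, adjusted p = 0.0262). PPARGC1B, its relative, rose, with 0.39 and 0.54 (limma, adjusted p = 0.0257). The remaining 2 calls, named after their values were seen, were TFAM, which packages mitochondrial DNA, at -0.48 and -0.32 (limma, adjusted p = 0.0388), and MTERF1, at -0.72 and -0.36 (limma, adjusted p = 0.0357). The features of TFAM averaged -1.26 and 0.46, and those of MTERF1 ranged from -0.84 to 0.03.

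The ratios of members with and without these motifs are given as a description. The median mean ratio was -0.01 in the 46 members with NRF1-like, ETS-like or YY1-like letters and -0.09 in the 22 without. Those with a match ranged from -0.34 to 0.27, and those without from -0.66 to 0.76. By limma, 1 of the 46 was called (MRPS34) and 3 of the 22 (MRPL1, MRPS11 and MRPL49), a difference that was not tested. Of all measured genes, 40.7% were called. The calls of MRPS11, which sets the lower end at -0.66, and of MRPL49 each rested on 1 of 3 features. With the median feature neither passed (limma, adjusted p = 0.350 and 0.88). MRPL1 and MRPS11, the highest and the lowest member, held none of the motifs in the printed sequences, and MRPS34 held the ETS-like letters. The 19 members with YY1-like letters had means from -0.33 to 0.22.

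Some of these genes start beside a gene on the opposite strand. Of the 68 members in the RefSeq table, 18 (26.5%) had a coding gene on the other strand whose start lay within 1000 bases upstream, against 10.3% of all 15842 coding genes and 13.5% of those measured. A ratio was measured for 17 of these neighbours, and 16 of them were less than 1.5-fold from control on both arrays, against 62.3% of all measured genes. The exception was MRPS11, which is itself the neighbour of MRPL46. MRPS11 and MRPL46 are both members, so each counts once as member and once as neighbour. The median of the mean ratio was -0.09 over the neighbours and -0.10 over the members of these pairs.

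**Figure D5:**
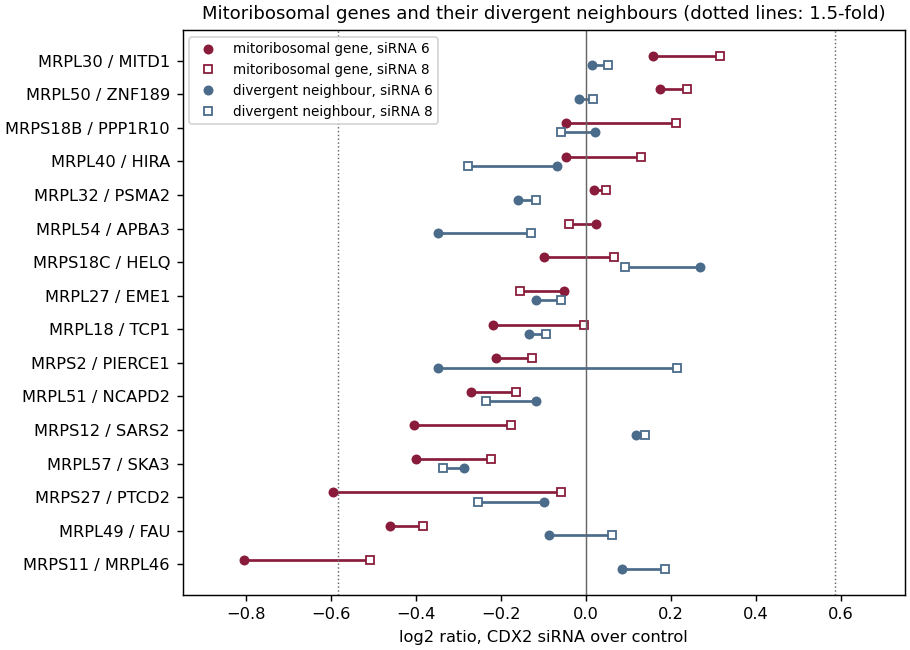
Log2 ratio of CDX2 siRNA over control (horizontal axis) for mitoribosomal genes (red, upper line of each row) and the coding gene that starts on the other strand within 1000 bases (blue, lower line), with siRNA 6 as filled circles, siRNA 8 as open squares and dotted lines at 1.5-fold; MRPS11 and MRPL46 are each other's neighbour and are drawn once. MRPS11 lies apart from MRPL46, and all neighbours drawn lie between the dotted lines.

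The pair of MRPL46 and MRPS11 starts 320 bases apart, with MRPL46 at 0.09 and 0.18 and MRPS11 at -0.81 and -0.51. The RefSeq features of MRPS11 lay nearer to MRPL46 than its BC000200 feature did. MRPL49 starts 49 bases from FAU, a gene for a fusion of a ubiquitin-like protein with a cytosolic ribosomal protein, which read -0.09 and 0.06. MRPS12 starts 181 bases from SARS2, the mitochondrial seryl-tRNA synthetase, and the stretch printed above lies between them. SARS2 read 0.12 and 0.14 where MRPS12 read -0.41 and -0.18. MRPL57 and SKA3, which start 106 bases apart, had the same mean of -0.31 but differed by array. MRPL57 read -0.40 and -0.22, and SKA3 read -0.29 and -0.34. MRPL18 read -0.22 and -0.00, and TCP1, a subunit of the cytosolic chaperonin that starts 210 bases away, read -0.14 and -0.09.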

How the data were processed

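RNA of COLO320 cells was compared on 2 two-colour Agilent arrays. The deposited values were read as log10 ratios of Cy5 over Cy3, because Agilent Feature Extraction 9.5.3, named in the submitters' processing notes, writes base 10. The base, the background correction and the dye normalization are not given in the sources used here. Values were converted to log2 with no further centring, and the direction follows the dyes in the labels. An exact 0 was taken as a missing ratio, which no source states.

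Of 45015 features, 31332 were annotated to 1 gene, 93 to several and 13590 to none. The first kind was used, and 31291 of these matched RefSeq by gene ID. Features measured on both arrays were averaged per gene. Probe names and intensities were not used here, so repeat spots and dim or saturated features could not be told apart.

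Genes were tested with limma 3.58.1 (R 4.3.3) against 0, by an intercept-only fit to both arrays with eBayes and Benjamini-Hochberg adjustment over 12842 genes. The fit was tested on simulated data. Tables were made in Python 3.11.15 with pandas 2.3.3 and NumPy 2.4.6. Medians, SDs and counts over the members carry no test. Subunit, origin and the 5 further lists come from textbook knowledge. Some genes of these lists were not analysed here.

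Named members are all that passed the test, the 5 with the widest gap between siRNAs, those with features 1 or more apart on the log2 scale, the 5 nearest 0, those with 3 features, the MRPS18 paralogs, MRPL12 and MRPS12. In the further lists, up to 4 called genes are named by the smaller absolute value of both arrays. The members and lists were chosen with earlier results of these data known. Alternatives covered centring, quantile normalization, exact zeros, the feature rule, the log base, the variance prior, the fold and each array alone.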

Additional observations from a re-analysis of the deposited data

How the results depend on the processing

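The count of 5 members past the test was 8 with median-centred arrays (7 higher, 1 lower), 0 with exact zeros kept, 2 with the median feature of a gene (MRPL1 and MRPL2; 37.1% of all genes), 1 with limma's treat against 1.2-fold (MRPL1; 27.8%) and 11 at an adjusted p under 0.1 (3 higher, 8 lower; 51.2%). It was within 1.5 times of 5 under the other alternatives run. The median feature of a gene with 2 features was its lower value on each array, so MRPL2 entered that setting at -0.85. The median member of -0.01 was 0.11 with centred arrays. The count of 1 member at 1.5-fold on both arrays was 3 by single features, 0 in genes with 2 or more features, 0 with values read as log2, 6 at 1.2-fold (44.6% of all genes) and 0 at 2-fold (14.9%), and it ran from 1 to 4 when 1 siRNA was left out. The SD of 0.201 was 0.303 by single features, 0.239 in genes with 2 or more features and 0.0604 with values read as log2, where the SD over all genes was 0.323, and it ran from 0.194 to 0.222 when 1 siRNA was left out. The count of 0 members 1.5-fold apart between the siRNAs was 1 with the median feature, 1 by single features and 3 at 1.2-fold (28.5% of all genes). Named members gave 167 tested values under the alternatives. Of 43 for called members, 12 lost the call, and 1 of these changed sign (MRPL49, to 0.020 with the median feature). Of 124 for members not called, 0 passed the limma test and 6 changed sign, 5 of them with centred arrays. This count covers only members named by the rule above. Outside that rule, MRPL10, MRPL30, MRPL39, MRPL45, MRPL50 and MRPS22 passed with centred arrays. MRPL57 passed when only genes with 2 or more features were tested. Leaving out 1 siRNA gave 40 values with no test, of which 7 changed sign, 0 of them for called members. The cause of these changes was not tested. No paired analysis was possible because each array already holds CDX2 siRNA and control together. The arrays give no intensities, so signal over background is unknown.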
